A study of Mus musculus with 281 samples.

Results

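The genes described here are those of the eukaryotic translation initiation factors and of proteins that carry an Eif symbol, in single mouse bone marrow progenitor cells. They were taken as the rows of the deposited table whose symbol starts with Eif and a digit from 1 to 6, without the pseudogene suffix -ps, and whose mean was at least 1 TPM in any of the 6 cell type labels. TPM is an abundance of transcripts per length, relative to the total of the cell. Of 43280 rows, 62 symbols matched, 6 of them had the suffix, 2 (Eif2c5 and Eif4e1b) were at 0 in every cell, and 54 were members. All but Eif5a2 also had a mean of at least 5 TPM in a label. Just inside the limit were Eif5a2, at 3.63 TPM in its highest label, and Eif4ebp3, at 6.46 TPM, and just outside were the genes at 0.

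The study profiled single cells of C57BL/6 mouse bone marrow by SMART-seq2, which reads whole transcripts of 1 cell. The cells carry the labels tpMo (31 cells), preNeu (31), proneu (22), Ly6C+GMP (95 and 10 cells of separate title runs), Ly6C-GMP (45) and CMP (47), where GMP and CMP are the usual short forms of granulocyte-monocyte and common myeloid progenitor. No label names a treatment or an altered allele in any group, and none gives the age or the number of the mice. The tpMo gate took cells without lineage markers or c-Kit that had CD115, CXCR4 and Ly6C, and the preNeu gate took lineage-negative cells with Gr1, CD11b, c-Kit and CXCR4 and without CD115 or SiglecF. Both GMP gates and the CMP gate took lineage-negative, Sca-1-negative cells with c-Kit and CD34. CD16/32 was high in the GMP gates, which differed in Ly6C, and low in the CMP gate. For 21 of the proneu cells the labels give the Ly6C+GMP gate and for 1 none, and whether proneu was assigned from the transcriptomes is not given in the sources used here. Each sample was 1 cell and no animal was named, so each label counted as 1 sample. No test was made, and every SD below is the spread over cells, not an error between animals.

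Initiation is the step in which the small ribosomal subunit finds the start codon of an mRNA. The ternary complex of eIF2, GTP and the initiator tRNA, together with eIF1, eIF1A, eIF3 and eIF5, loads the small subunit. The eIF4F complex, made of the cap-binding protein eIF4E, the scaffold eIF4G and the helicase eIF4A, brings it to the capped end of the mRNA, and eIF5B joins the large subunit. The main controls are kinases that phosphorylate eIF2 and so block its recycling by eIF2B, and the 4E-binding proteins, which keep eIF4E from eIF4G until mTOR phosphorylates them. In blood cell precursors the rate of protein synthesis differs between stages, and these are among its known controls.

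Read depth cannot be taken from TPM, and detected genes, those at 1 TPM or more, were counted in its place. Their median number was 3082 in tpMo, 2373 in preNeu, 4204 in proneu, 4829 in Ly6C+GMP, 4514 in Ly6C-GMP and 3489 in CMP cells. In preNeu cells the 20 most abundant genes held 47.1% of TPM by the median, and in the other labels between 14.2% and 22.4%. The labels were checked against marker genes. The 10 neutrophil granule genes summed to a mean of 28.8% of TPM in preNeu and 11.02% in proneu cells, against 0.681% to 7.51% in the other labels. Singly they went both ways between preNeu and proneu cells, with 5 of the 10 higher and 4 lower by 1 log2 unit or more. Their differences ran from -11.05 to 11.41. The 8 monocyte genes summed to 5.98% in tpMo cells, to 4.63% in preNeu cells and to at most 0.289% elsewhere. In preNeu cells nearly all of that sum was Lyz2, a lysozyme gene of monocytes and neutrophils (mean 46321 of 46325 TPM); the median preNeu cell had 2 of the 8 detected and Klf4 was at 0. Of 7 measured in preNeu against proneu cells, Lyz2 was higher and 3 were lower. The 6 lymphoid markers were at or near 0 everywhere, and the 10 erythroid and megakaryocyte markers averaged 1830 TPM in CMP and at most 186 TPM in the other labels. The sample titles fall into 4 numbered runs whose meaning the labels do not give. Run A holds 95 Ly6C+GMP cells. Run B holds 31 CMP, 30 Ly6C-GMP and 1 proneu cell, run H 16 CMP and 15 Ly6C-GMP cells, and run C the other 10 Ly6C+GMP cells, 21 proneu cells and all preNeu and tpMo cells. No run holds both Ly6C+GMP and Ly6C-GMP cells, so between those the run cannot be told apart from the label.

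RefSeq start sites on GRCm38.p6 gave a promoter window, from 250 bases before to 50 bases after the start, for 43 of the 54 genes. The windows below belong to genes to which the comparisons return: the most abundant factors Eif5a and Eif4a1, Eif1, the eIF3 subunit genes Eif3g, Eif3l and Eif3m, and the X- and Y-linked genes of eIF2 gamma. They lie at chr11:69921909-69922208 on the minus strand (Eif5a), chr11:69672374-69672673 on the minus strand (Eif4a1), chr11:100319699-100319998 on the plus strand (Eif1), chr9:20898541-20898840 on the minus strand (Eif3g), chr15:79074973-79075272 on the plus strand (Eif3l), chr2:105016978-105017277 on the minus strand (Eif3m), chrX:94212602-94212901 on the minus strand (Eif2s3x) and chrY:1010345-1010644 on the plus strand (Eif2s3y). Each is printed 5′ to 3′ on the strand of the gene, and capitals mark letters of the motifs searched.
Eif5a: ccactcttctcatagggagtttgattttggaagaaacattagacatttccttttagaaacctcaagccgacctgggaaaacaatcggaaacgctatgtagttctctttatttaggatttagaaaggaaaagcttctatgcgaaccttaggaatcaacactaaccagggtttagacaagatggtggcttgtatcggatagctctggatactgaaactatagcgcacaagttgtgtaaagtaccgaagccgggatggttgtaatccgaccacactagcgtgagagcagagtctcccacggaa
Eif4a1: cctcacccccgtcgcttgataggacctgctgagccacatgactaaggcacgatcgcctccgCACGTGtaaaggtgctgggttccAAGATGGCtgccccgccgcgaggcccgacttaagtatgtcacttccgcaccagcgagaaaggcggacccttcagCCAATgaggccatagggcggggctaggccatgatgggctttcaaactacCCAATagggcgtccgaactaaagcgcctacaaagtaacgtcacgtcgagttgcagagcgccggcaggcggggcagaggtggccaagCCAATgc
Eif1: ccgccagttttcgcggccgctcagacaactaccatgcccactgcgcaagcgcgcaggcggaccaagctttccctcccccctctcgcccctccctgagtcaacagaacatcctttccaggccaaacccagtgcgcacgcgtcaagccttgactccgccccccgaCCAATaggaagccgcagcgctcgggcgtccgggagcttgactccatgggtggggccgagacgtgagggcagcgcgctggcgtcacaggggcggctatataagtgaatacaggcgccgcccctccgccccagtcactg
Eif3g: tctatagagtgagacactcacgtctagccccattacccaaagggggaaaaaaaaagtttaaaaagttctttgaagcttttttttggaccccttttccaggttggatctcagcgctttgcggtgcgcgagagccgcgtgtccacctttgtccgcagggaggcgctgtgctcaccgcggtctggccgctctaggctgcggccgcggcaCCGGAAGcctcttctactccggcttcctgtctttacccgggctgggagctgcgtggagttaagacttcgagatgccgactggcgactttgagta
Eif3l: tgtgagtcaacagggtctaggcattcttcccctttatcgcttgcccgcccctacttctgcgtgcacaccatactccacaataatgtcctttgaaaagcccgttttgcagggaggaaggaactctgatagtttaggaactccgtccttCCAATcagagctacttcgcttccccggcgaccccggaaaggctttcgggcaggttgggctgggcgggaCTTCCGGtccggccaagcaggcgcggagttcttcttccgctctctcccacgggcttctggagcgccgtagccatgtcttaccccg
Eif3m: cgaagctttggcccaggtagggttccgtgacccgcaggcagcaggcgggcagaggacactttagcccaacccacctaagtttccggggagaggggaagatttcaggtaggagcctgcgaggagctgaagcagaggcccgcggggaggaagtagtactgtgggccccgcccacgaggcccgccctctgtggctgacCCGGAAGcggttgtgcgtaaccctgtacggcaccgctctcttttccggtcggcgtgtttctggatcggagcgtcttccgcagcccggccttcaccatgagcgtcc
Eif2s3x: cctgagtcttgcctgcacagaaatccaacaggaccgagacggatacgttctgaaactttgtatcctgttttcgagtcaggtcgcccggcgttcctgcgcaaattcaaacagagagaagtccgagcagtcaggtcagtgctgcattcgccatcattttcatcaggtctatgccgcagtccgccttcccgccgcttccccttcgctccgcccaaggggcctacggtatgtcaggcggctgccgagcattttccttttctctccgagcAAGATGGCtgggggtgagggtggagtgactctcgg
Eif2s3y: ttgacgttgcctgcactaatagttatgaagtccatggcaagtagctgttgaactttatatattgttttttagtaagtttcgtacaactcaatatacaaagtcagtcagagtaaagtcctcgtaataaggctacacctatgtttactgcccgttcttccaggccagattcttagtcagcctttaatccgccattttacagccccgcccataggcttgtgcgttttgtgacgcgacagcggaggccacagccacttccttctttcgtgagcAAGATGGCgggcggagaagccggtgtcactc
The motifs, each searched on both strands, were the E-box CACGTG, the ETS core CCGGAAG, the YY1 core AAGATGGC, the NRF1 core GCATGCGC, the CCAAT box written as ATTGG, and the cAMP response element TGACGTCA, and none of them contains another. The ETS letters stood in the windows of Eif3g, Eif3l and Eif3m, and in 14 of the 43 member windows (32.6%) against 9.14% of 27025 gene windows. The E-box stood in 8 member windows (18.6%, against 7.24% of all), among them that of Eif4a1, which also held the YY1 and CCAAT letters. The YY1 letters were in 4 member windows (9.30%, against 2.87% of all), among them both Eif2s3x and Eif2s3y. The NRF1 core was in 3 (6.98%, against 2.80%), the CCAAT box in 13 (30.2%, against 38.02%) and the cAMP response element in 0 (against 1.85% of all). Eif5a, which has 6 RefSeq windows, held none of the letters in the most upstream one printed here. The members had to reach 1 TPM in a label, whereas the gene windows were not limited to genes expressed in these cells. These matches describe letters and not bound sites.

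Eif5a, Eif4a1 and the 14 eIF3 subunit genes made up the larger part of initiation factor RNA in every label. Eif5a gave a mean of 21.6% of the summed TPM of the 54 genes in tpMo, 25.1% in preNeu, 27.97% in proneu, 28.6% in Ly6C+GMP, 26.01% in Ly6C-GMP and 23.7% in CMP cells. The eIF3 genes together gave between 22.1% (preNeu) and 31.1% (Ly6C-GMP), and Eif4a1 between 7.16% (preNeu) and 13.5% (Ly6C+GMP). Eif5a codes for a factor that relieves stalled ribosomes and was first named for initiation, and it lies at chr11:69916714-69921958 (GRCm38, GENCODE M21). Its mean was 2357 ± 1181 TPM in tpMo, 1320.3 ± 794 in preNeu, 3798 ± 995 in proneu, 4171 ± 925 in Ly6C+GMP, 3710.3 ± 1048 in Ly6C-GMP and 3618 ± 1431 in CMP cells (mean ± SD over cells). The means of the proneu, GMP and CMP labels lay within 1 SD of each other, with tpMo below them and preNeu lowest. Eif4a1, the main helicase of eIF4F, had the second highest mean in every label, from 373 ± 361 TPM in preNeu to 1969.6 ± 585 TPM in Ly6C+GMP cells, although in preNeu cells it differed from Eif1 (361 ± 291 TPM) by far less than the spread. Eif4a1 shares long stretches of sequence with Eif4a2, so the division of reads between them is an estimate, as it is for Eif1 and Eif1b, Eif1a and Eif1ax, Eif2s3x and Eif2s3y, and Eif3j1 and Eif3j2.

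Among the factors of scanning and subunit joining, Eif1 had mean levels between 245 TPM in proneu and 389 TPM in tpMo cells, and Eif5, the GTPase activator of eIF2, between 196 TPM in preNeu and 344 TPM in tpMo cells. Eif1a lay between 0.229 TPM in preNeu and 179.7 TPM in Ly6C-GMP cells, its X-linked relative Eif1ax between 12.7 TPM in preNeu and 52.7 TPM in CMP cells, and Eif5b, which joins the subunits, between 5.51 TPM in preNeu and 64.4 TPM in proneu cells. Eif1 was the one gene of this group with its lowest mean outside preNeu and tpMo cells, and its label means differed from each other by less than the SD over tpMo, preNeu or CMP cells. Of eIF2, which carries the initiator tRNA, the alpha subunit gene Eif2s1 lay between 65.9 TPM in preNeu and 192 TPM in CMP cells and the beta subunit gene Eif2s2 between 19.6 TPM in preNeu and 104.8 TPM in proneu cells. The 5 subunit genes of eIF2B, which recharges eIF2 with GTP, were led by Eif2b2, between 116 TPM in preNeu and 187 TPM in tpMo cells, and Eif2b3 and Eif2b5 were listed at 0 TPM in all 31 preNeu cells.

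The eIF3 subunit genes spread over a wide range of levels per length. Highest were Eif3g, between 129.6 TPM in preNeu and 604 TPM in Ly6C+GMP cells, Eif3k, between 189 TPM in preNeu and 599 TPM in Ly6C-GMP cells, Eif3h, between 118 TPM in preNeu and 574 TPM in Ly6C-GMP cells, and Eif3m, between 164 TPM in preNeu and 558 TPM in CMP cells. The core subunit genes Eif3a, between 26.9 TPM in preNeu and 142 TPM in CMP cells, Eif3b, between 6.97 TPM in preNeu and 74.1 TPM in CMP cells, and Eif3c, between 72.2 TPM in preNeu and 181 TPM in CMP cells, were lower. Eif3j1 and Eif3j2, which code for a loosely bound subunit, had means of at most 19.3 and 23.9 TPM. All 14 had their lowest mean in preNeu cells, a count not set against its share over all genes.

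Within the eIF4 group the cap-binding gene Eif4e lay between 51.4 TPM in preNeu and 206 TPM in CMP cells and the scaffold gene Eif4g1 between 20.3 TPM in preNeu and 106 TPM in CMP cells. The relative Eif4g2, whose product lacks the eIF4E-binding part, lay between 199.9 TPM in tpMo and 343 TPM in proneu cells, above Eif4g1 in every label. Of the helicase cofactors, Eif4h lay between 139 TPM in preNeu and 345 TPM in tpMo cells and Eif4b between 24.3 TPM in preNeu and 99.4 TPM in proneu cells. Eif6, which keeps the large subunit from joining too early, lay between 149 TPM in preNeu and 348 TPM in proneu cells. Of the genes with an Eif symbol and other roles, Eif4a3 lay between 193 TPM in preNeu and 401 TPM in proneu cells, and Eif2a and Eif2d, whose products can bring tRNA to the ribosome without eIF2, between 20.04 TPM in preNeu and 125 TPM in CMP cells and between 11.4 TPM in preNeu and 117 TPM in CMP cells. At the low end, Eif2ak3, Eif3j1, Eif4ebp3 and Eif5a2 had means of at most 19.3 TPM in any label, and Eif5a2 was detected in at most 3 cells of a label.

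Of the 54 genes, 47 had their lowest mean TPM in preNeu cells, 5 in tpMo and 2 in proneu cells. CMP cells had the highest mean TPM for 22 genes, tpMo for 11, proneu for 9, Ly6C-GMP for 8, Ly6C+GMP for 4 and preNeu for none. On the scale of mean log2(TPM + 1), which weighs the share of cells with the gene more than the level in the highest cells, the order differed: Ly6C+GMP cells were highest for 27 genes and CMP cells for 3, and preNeu cells were again lowest, for 49. The median number of detected genes was likewise lowest in preNeu and highest in Ly6C+GMP cells, and its part in this order was not tested. These counts are not set against the same counts over all genes, so the order is not shown to be particular to the members. Of all measured genes 39.8% were lower by 1 log2 unit or more in preNeu than in proneu cells, and 71.5% of those at 50 TPM or more.

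The RNA of all 54 genes together was lowest in preNeu cells. Its sum per cell was 5802, 9946 and 16452 TPM in tpMo cells (lowest, median and highest), 1976, 4927 and 8030.4 in preNeu, 8566, 13491 and 19262 in proneu, 9876, 14317 and 19675 in Ly6C+GMP, 9246, 14076 and 18710.1 in Ly6C-GMP and 9517, 15334 and 21118 in CMP cells. No preNeu cell reached the lowest cell of proneu, Ly6C+GMP, Ly6C-GMP or CMP, and 21 of the 31 preNeu cells were below the lowest tpMo cell. The tpMo cells overlapped the progenitors, with 14 of 31 below the lowest Ly6C+GMP cell, and the other 4 labels overlapped each other almost wholly. The mean total was 5045 ± 1613 TPM in preNeu against 13460.1 ± 2464 in proneu cells, a ratio of 0.375, but under median-ratio scaling over 547 widely detected genes it was 18758 in preNeu against 9443 in proneu cells, so the direction turned round. The mean in tpMo cells, 10644 ± 2446 TPM, was 0.733 of that in Ly6C+GMP cells and 2.11 times that in preNeu cells. Under the median-ratio scaling the tpMo mean was 8548, below that of preNeu cells, so this direction also turned round. TPM sets the total against all RNA of the cell, and the scaled value against 547 widely detected genes.

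A ratio of gene groups within a cell does not depend on the scaling. The total of the 54 genes as a percentage of the total of 89 cytosolic ribosomal protein genes had a median of 23.9% in tpMo, 43.03% in preNeu, 23.8% in proneu, 23.3% in Ly6C+GMP, 16.5% in Ly6C-GMP and 18.1% in CMP cells. The preNeu cells, from 21.5 to 119%, were the highest by median and overlapped all other labels, of which proneu ran from 14.9 to 32.9%. Against 13 genes of elongation, termination and recycling the median was 276% in preNeu and 126% in proneu cells. The mean ribosomal protein total was 12090.4 TPM in preNeu against 55613 TPM in proneu cells, a ratio of 0.217.

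**Figure D1:**
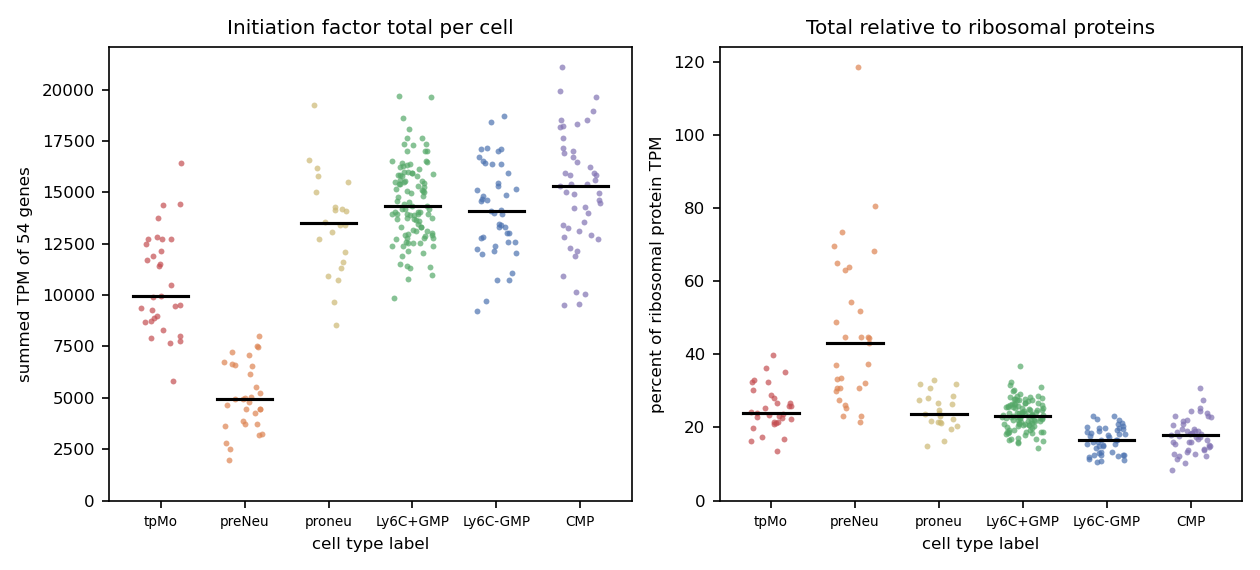
Summed TPM of the 54 genes per cell (left) and that sum as a percentage of the summed TPM of 89 cytosolic ribosomal protein genes (right), for each label; 1 point is 1 cell and the black line is the median. The preNeu cells are lowest on the left, where median-ratio scaling turns their place round (mean 18758, the highest of the labels), and highest by median on the right. Under that scaling 42 of 53 genes were still lower in preNeu than in proneu cells on the log scale, against 29.2% of all genes.

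How many of the 54 genes a cell showed at 1 TPM or more went with the number of all genes it showed. The median was 29 of 54 in tpMo, 20 in preNeu, 37 in proneu, 41 in Ly6C+GMP, 39 in Ly6C-GMP and 32 in CMP cells. Within a label, Spearman's rho between the members and all genes detected in a cell lay between 0.60 and 0.88 (1 point per cell, a description over cells of shared libraries). Eif1 and Eif5a were detected in all 31 preNeu cells, and 14 genes in at least 50% of them, against 38 genes in at least 50% of proneu and 47 in at least 50% of Ly6C+GMP cells. The eIF2 kinase gene Eif2ak4, the eIF2B subunit genes Eif2b3 and Eif2b5, and Eif5a2 were each detected in 0 of 31 preNeu cells, which allows a share of up to 11.2% (exact 95% limit, counting error only). Fewer molecules in a cell and fewer reads of it give the same loss of low genes here and cannot be told apart.

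**Figure D2:**
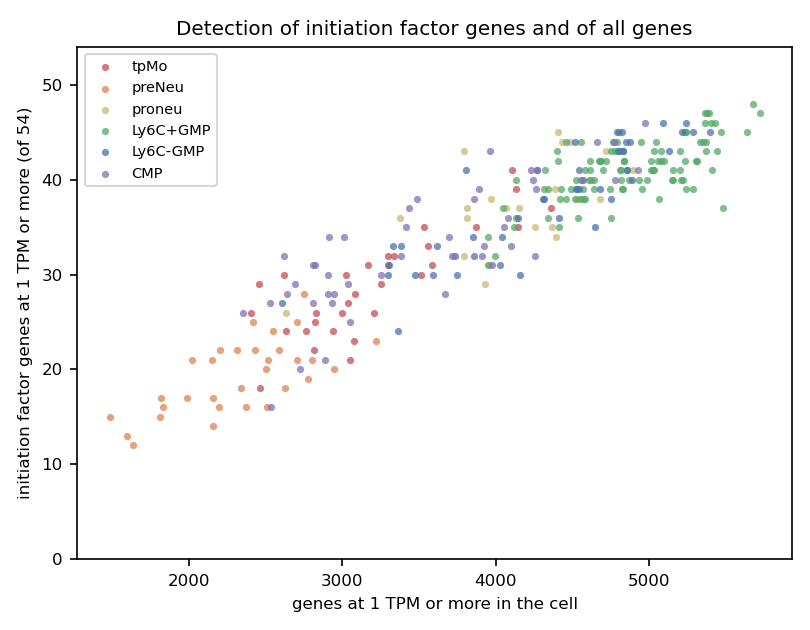
Number of the 54 genes detected at 1 TPM or more (vertical axis) against the number of all genes detected (horizontal axis), 1 point per cell, coloured by label. The preNeu cells lie at the low end of both axes (medians 20 and 2373) and the Ly6C+GMP cells at the high end (medians 41 and 4829).

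Labels were compared by the mean of log2(TPM + 1) in the first minus that in the second, which understates the change of low genes. Where a gene is missing from many cells of 1 label, this difference can also be larger than the log2 ratio of mean TPM. Measured genes are those whose mean reached 1 TPM in one of the 2 labels, and a gene is called higher or lower where the difference was 1 log2 unit or more. The share of all measured genes past the same limit is given as the background beside each count.

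Between preNeu and proneu cells, nearly every initiation factor gene was lower in preNeu cells. Of 53 measured, 49 were lower and 0 higher, where 39.8% of all measured genes were lower and 3.58% higher, and the median difference was -2.61 against -0.68 over all genes. The members are more abundant than most genes, and at a mean of 50 TPM or more 38 of 39 were lower and 0 higher, against 71.5% and 8.08% of all such genes. At that level the median was -3.01 against -2.05, a smaller gap. By role, 14 of 14 eIF3 subunit genes were lower, with a median of -4.11, as were 9 of 9 of eIF2 and eIF2B, 9 of 10 of the eIF4 group, 5 of 6 of scanning and subunit joining, 3 of 4 eIF2 kinases, 3 of 4 4E-binding protein genes and both measured genes of eIF5A and eIF6. Under median-ratio scaling 42 of the 53 were lower and 1, Eif1, was higher, by 2.17, against 29.2% and 7.49% of all genes. That scaling moved the median of all genes to -0.40 and that of the members to -1.67. Within title run C the count was 49, against a background of 40.1%. The preNeu cells also had fewer detected genes, more TPM in their 20 most abundant genes and more neutrophil granule RNA, at the values given above, and the part of these in the result was not tested.

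Eif3g, an RNA-binding subunit of eIF3, differed the most. Eif3g had 0, 0 and 951 TPM (lowest, median and highest) in preNeu cells, against 145, 521 and 858 TPM in proneu cells, a difference of -6.03. It was not detected in 17 of the 31 preNeu cells and was detected in every proneu cell, yet the highest preNeu cell was above all proneu cells. Eif3i, a WD-repeat subunit, was detected in 8 of 31 preNeu cells against 19 of 22 proneu cells, with means of 40.8 ± 129 and 373 ± 402 TPM (difference -5.81). Eif3e, a PCI-domain subunit, had means of 80.4 ± 227 TPM in preNeu and 412 ± 280.3 TPM in proneu cells (difference -5.69), and for both genes the ranges of cells overlapped. The helicase gene Eif4a2 averaged 76.8 against 389.8 TPM (difference -5.60), and Eif3h 118 against 416 TPM (difference -5.11).

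In this pair the level in the cells that had a gene was lower as well as the share of cells with it. The share was lower in preNeu cells for 51 of 53 genes, by a median of 35.2 percentage points against 13.2 points over all genes. All genes here are the measured ones, which are mostly less abundant than the members. The counts of this paragraph are not set against their share over all genes. Among the 39 genes detected in at least 5 cells of each label, the mean log2 level where detected was lower for 32 and higher for 7, with a median of -1.21 against -0.20 over all genes. For Eif4a1 the level was lower with little change in the share, as it was detected in 30 of 31 preNeu cells and 22 of 22 proneu cells. It had 0, 366 and 1248 TPM in preNeu cells, against 704, 1732 and 2939.9 TPM in proneu cells (lowest, median and highest). Its level where detected differed by -3.75. Eif1, which guards the choice of start codon, stood apart with 10.7, 321 and 1599 TPM in preNeu cells, against 89.6, 272 and 433 TPM in proneu cells and a difference of 0.29. Its ranges overlapped wholly, and it made up 7.62% of all member TPM in preNeu and 1.91% in proneu cells on average. Eif4g2 differed by -1.59 as deposited and by 0.13 under median-ratio scaling, so its direction depends on the scaling.

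**Figure D3:**
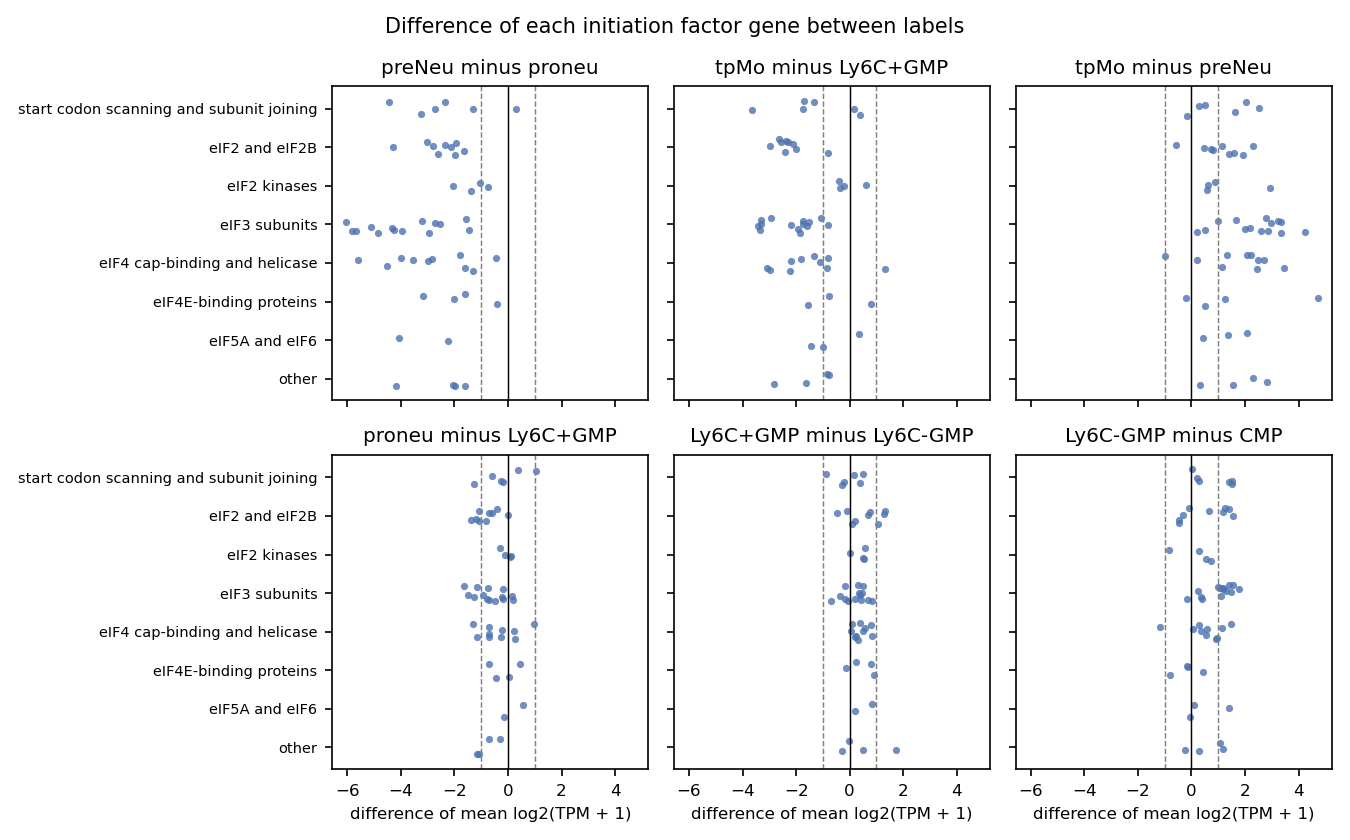
Difference of mean log2(TPM + 1), first label minus second, for each measured gene (points, grouped by role) in the 6 comparisons (panels); dashed lines mark -1 and 1. The eIF3 subunits lie furthest below 0 in preNeu against proneu cells (median -4.11) and mostly below 0 in tpMo against Ly6C+GMP cells (median -1.91).

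Between tpMo and Ly6C+GMP cells most of the genes were lower in tpMo cells on the log scale, and the mean TPM moved less. Of 53 measured, 37 were lower and 1 higher, against 32.9% and 3.19% of all measured genes, with a median of -1.72 against -0.50. At 50 TPM or more, 30 of 41 were lower and 1 higher, against 59.2% and 7.63%, with a median of -1.95 against -1.35. The lower genes were 13 of 14 eIF3 subunits, 8 of 9 of eIF2 and eIF2B, 7 of 10 of the eIF4 group and 4 of 6 of scanning and subunit joining, and 0 of 4 eIF2 kinases. By the log2 ratio of mean TPM, 7 were lower and 4 higher, against 25.7% and 18.5% of all measured genes with a mean above 0 in both labels. The share of cells with the gene was lower for 46 of 53, by a median of 23.3 points against 10.7 over all genes, while the level where detected was lower for 24 and higher for 24 of 48, with a median of -0.048 against 0.27 over all genes. Neither of these counts is set against its share over all genes, which are mostly less abundant than the members. Median-ratio scaling, which moved the median of all genes to -0.39, left that of the members at -1.43. Within run C, 35 were lower, against 36.9% of all genes. The median of detected genes was 3082 in tpMo and 4829 in Ly6C+GMP cells, and its part in the result was not tested.

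Several eIF3 genes past the limit on the log scale also had a lower mean TPM, though not always by 1 log2 unit. Eif3g had 0, 173 and 777 TPM in tpMo cells, against 6.84, 566 and 1532 TPM in Ly6C+GMP cells (lowest, median and highest), with a difference of -3.43 and overlapping ranges. Eif3m averaged 295 ± 359.6 TPM in tpMo cells, against 555 ± 297 TPM in Ly6C+GMP cells (difference -3.30), and Eif3d, a subunit that can bind the cap of some mRNAs, 104.7 ± 175 and 189 ± 139.9 TPM (difference -3.31). Eif1a, a partner of eIF1 in scanning, was detected in 10 of 31 tpMo cells and 91.4% of Ly6C+GMP cells, with a difference of -3.66. The other direction held 1 gene, Eif4e3, a cap-binding relative of eIF4E, with 0, 67.5 and 530.1 TPM in tpMo cells, against 0, 1.64 and 279.5 TPM in Ly6C+GMP cells. Its difference was 1.31 over all cells and 3.34 against the 10 Ly6C+GMP cells of run C. Eif4ebp1, which codes for the main 4E-binding protein, averaged 239.6 ± 164 TPM in tpMo cells, against 145 ± 126 TPM in Ly6C+GMP cells, a difference of 0.80 that is under 1 unit.

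The tpMo and preNeu cells came from different gates and the same title run. The median of detected genes was 3082 in tpMo and 2373 in preNeu cells, and 24 of the 31 preNeu cells had at least 2000. The 20 most abundant genes held 18.5% and 47.1% of TPM by the median. Their part in the result was not tested. As given above, the direction of the summed total in this pair turned round under median-ratio scaling. Of 54 measured genes, 36 were higher and 1 lower in tpMo cells, against 26.3% and 4.53% of all measured genes, with a median of 1.61 against 0.36. At 50 TPM or more, 32 of 37 were higher and 0 lower, against 57.6% and 9.91%, with a median of 2.23 against 1.28. The higher genes included 12 of 14 eIF3 subunits and 8 of 10 of the eIF4 group. Eif4ebp1 differed the most, with 0, 228 and 581 TPM in tpMo cells, against 0, 0 and 565 TPM in preNeu cells and a difference of 4.71. It was detected in 28 of 31 tpMo cells (90.3%, exact 95% interval 74.2 to 97.96%) and 12 of 31 preNeu cells (38.7%, exact 95% interval 21.9 to 57.8%). The intervals cover counting error over cells only, for a gene named for its difference, and are no test between the labels. Eif3e followed at 4.26 and Eif4a1 at 3.44, where Eif4a1 averaged 1343 ± 783 TPM in tpMo and 373 ± 361 TPM in preNeu cells. Eif4g3, an eIF4G scaffold, was the gene that was lower, at 7.94 TPM in tpMo and 24.3 TPM in preNeu cells (difference -1.005). Median-ratio scaling moved the median of all genes to 0.20 and that of the members to 0.96. Under it 26 genes were higher and 3 lower, against 17.8% and 9.39% of all genes, and Eif5a differed by -0.29, against 1.38 as deposited.

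Fewer genes differed between proneu cells and Ly6C+GMP cells, whose gate the labels give for 21 of the 22 proneu cells. For the other cell, of run B, no gate is given. Of 53 measured genes, 13 were lower and 1 higher in proneu cells, against 15.9% and 2.20% of all measured genes. The median was -0.49 against -0.23, and -0.71 against -0.55 over genes at 50 TPM or more. At 50 TPM or more 12 of 40 were lower and 1 higher, against 32.3% and 4.88%, so at that level the share of members past the limit was no larger than that of all genes. Within run C 12 were lower, against 21.2%, and 4 higher, against 5.49%. By the log2 ratio of mean TPM 0 were lower and 3 higher, against 18.9% and 12.996% of all genes. Eif5b, the GTPase that joins the subunits, was the higher gene, with 0, 22.8 and 316 TPM in proneu cells, against 0, 8.32 and 313 TPM in Ly6C+GMP cells and a difference of 1.03. Within run C its difference was 0.54, under the limit, and the genes past it there were Eif4b (1.76), Eif4ebp2 (1.60), Eif2ak1 (1.53) and Eif4e3 (1.08). Some exon positions of Eif5b are shared with Rev1 on the other strand, and reads from these cannot be assigned by strand. Eif3c, a core eIF3 subunit detected in every cell of both labels, averaged 122 ± 126 TPM in proneu cells, against 179 ± 109 TPM in Ly6C+GMP cells (difference -1.65, and -0.99 within run C, just under the limit). Eif3f, another subunit, had means of 169 ± 189 TPM in proneu cells against 271 ± 154 in Ly6C+GMP cells (difference -1.49, and -1.44 within run C). Eif1a gives a case where the measures part, with a difference of -1.27 and means of 145 TPM in proneu cells, against 126 TPM in Ly6C+GMP cells, and detection in 14 of 22 proneu cells and 91.4% of Ly6C+GMP cells.

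In the comparison of the GMP labels few of the genes differed by 1 log2 unit. Of 53 measured genes, 4 were higher and 0 lower in Ly6C+GMP cells, against 9.87% and 1.35% of all measured genes. At 50 TPM or more the counts were 4 and 0 of 39, against 24.1% and 2.79%, so at both levels the share of members past the limit was no larger than that of all genes. The median was 0.34 against 0.12, but at 50 TPM or more it was 0.31 against 0.43, below that of all genes. The 4 genes were Eif4a3, the helicase of the exon junction complex (difference 1.73), Eif2s3y (1.30), Eif2s3x (1.27) and the eIF2B subunit gene Eif2b2 (1.04). Eif4a3 had 0, 347 and 979.6 TPM in Ly6C+GMP cells, against 0, 203 and 1141 TPM in Ly6C-GMP cells, with overlapping ranges and detection in 97.1% of Ly6C+GMP cells and 36 of 45 Ly6C-GMP cells. For run A alone 5 were higher, against 10.1%, and with the 10 of run C alone 7 were higher and 6 lower, against 16.7% and 6.64%. With run C alone Eif2b2 differed by 0.72, under the limit, while Eif4a3, Eif2s3y and Eif2s3x stayed past it.

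Between Ly6C-GMP and CMP cells the log scale and mean TPM gave different counts. Of 54 measured genes, 21 were higher and 1 lower in Ly6C-GMP cells, against 15.6% and 1.29% of all measured genes, and the median was 0.57 against 0.19. At 50 TPM or more, 19 of 41 were higher and 1 lower, against 35.99% and 3.16%, with a median of 0.93 against 0.66. By the log2 ratio of mean TPM 3 were higher and 3 lower, against 13.2% and 22.5% of all genes. The share of cells with the gene was higher for 41 of 54, by a median of 8.46 points against 4.44 over all genes. The level where detected was higher for 28 and lower for 22 of 50, with a median of 0.11 against -0.17 over all genes. Neither of these counts is set against its share over all genes, which are mostly less abundant than the members. Of the 14 eIF3 subunit genes 9 were higher. Eif3l led with a difference of 1.79, at 0.840, 424 and 959 TPM in Ly6C-GMP cells, against 0, 344 and 1251 TPM in CMP cells, and means of 417 ± 241 and 336 ± 318 TPM. The highest CMP cell was above every Ly6C-GMP cell, and detection was in 44 of 45 and 41 of 47 cells. The runs differed: in run B 20 were higher, against 20.5% of all genes, and in run H 15, against 18.4%. The genes Eif1ad, Eif2b4, Eif3g, Eif3h, Eif3j1, Eif3l and Eif5b were higher in both. These are 13.2% of the 53 members measured in both runs, against 8.999% of all genes so measured. Of the genes higher in both, Eif1ad, Eif2b4, Eif3j1 and Eif5b share exon positions with Banf1, Snx17, Spg11 and Rev1 on the other strand. Banf1 averaged 382 TPM and Snx17 129 TPM over all cells, and reads from shared positions cannot be assigned by strand. Opposite signs were found for 21 members (39.6%, against 41.01% of all genes), and Eif1ax and Eif2ak2 were past the limit in opposite directions. The median of detected genes was 4514 in Ly6C-GMP and 3489 in CMP cells, the erythroid and megakaryocyte markers averaged 186 and 1830 TPM, and the basophil and mast cell markers 933 and 473 TPM, and their part in the result was not tested.

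Eif4a2 was the gene that was lower in Ly6C-GMP cells. It had 0.930, 305 and 1605 TPM in Ly6C-GMP cells, against 0.780, 539 and 4623 TPM in CMP cells, with means of 377 ± 386 and 746 ± 904 TPM and a difference of -1.17. Within run B the difference was -1.59 and within run H -0.36, under the limit, and 0 members were lower in both runs. The CMP range reached well past the Ly6C-GMP range and both began near 0. As a percentage of Eif4a1 and Eif4a2 together, Eif4a2 averaged 16.3 ± 13.3% in Ly6C-GMP and 29.2 ± 26.4% in CMP cells, and between 14.2% and 18.3% in the other labels. Eif4a2 shares exon positions with Rfc4 on the other strand, so reads from these positions cannot be assigned by strand.

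**Figure D4:**
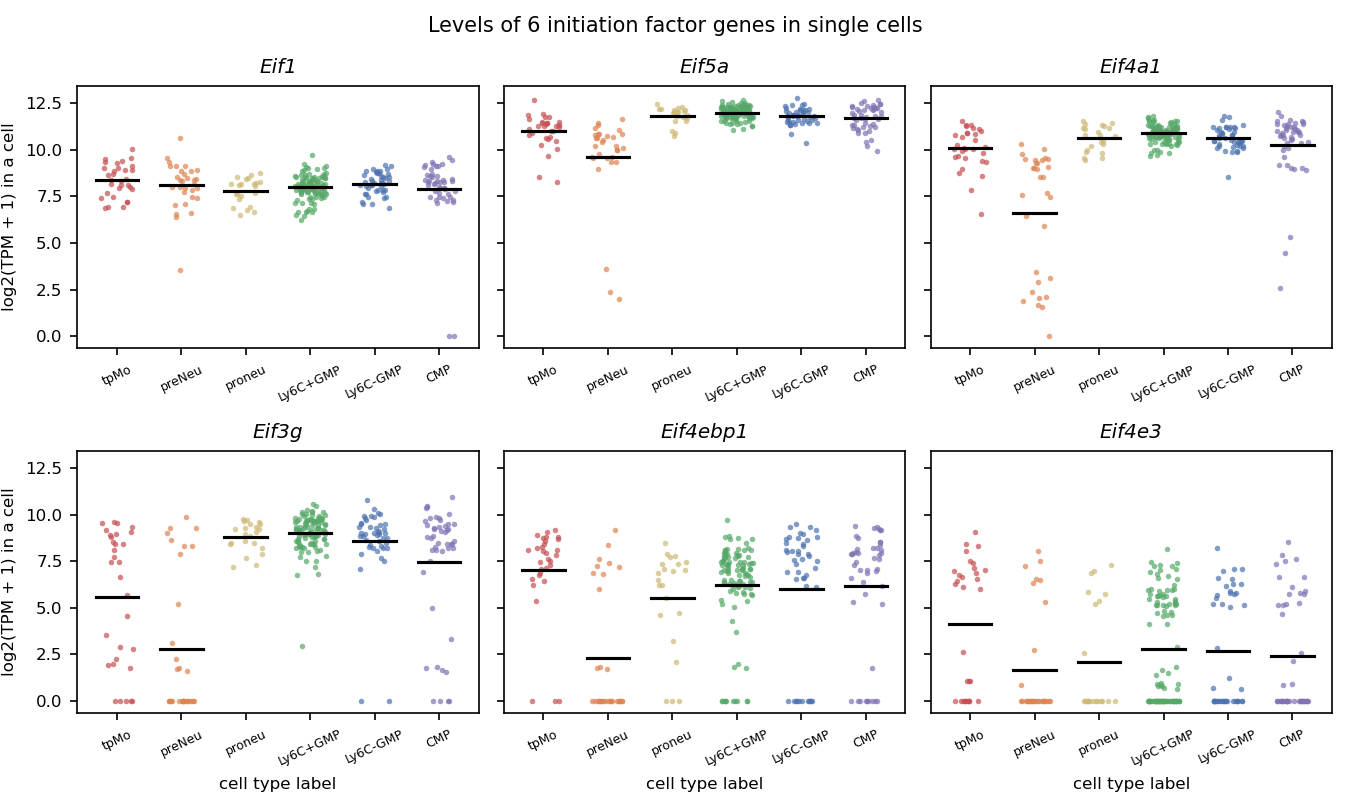
TPM of 6 genes in every cell, on a log2(TPM + 1) axis, by label; 1 point is 1 cell and the black line is the mean of log2(TPM + 1). Eif1 and Eif5a are present in nearly every cell, Eif4a1 and Eif3g are absent or low in part of the preNeu cells, and Eif4ebp1 and Eif4e3 split each label into cells with and without the gene.

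Among the regulators, the 4 eIF2 kinase genes were low everywhere. Eif2ak1, the kinase that senses heme, averaged 87.7 ± 115 TPM in tpMo, 9.34 ± 37.7 in preNeu, 45.4 ± 69.7 in proneu, 36.1 ± 55.3 in Ly6C+GMP, 32.1 ± 60.4 in Ly6C-GMP and 20.4 ± 40.9 in CMP cells. The SD exceeded the mean in each label, and its exons overlap those of Aimp2 on the other strand. Its difference between tpMo and Ly6C+GMP cells was 0.60 over all cells and 2.31 within run C. Eif2ak2 (the kinase that senses double-stranded RNA), Eif2ak3 (stress of the endoplasmic reticulum) and Eif2ak4 (amino acid shortage) had means of at most 22.7 TPM in any label and were detected in fewer than 50% of the cells of each. Together the kinases gave 1.30% of member TPM in tpMo cells and between 0.346% and 0.638% in the other labels.

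The 4E-binding protein genes were led by Eif4ebp1, whose mean was lowest in preNeu cells at 59.8 TPM and highest in tpMo cells at 239.6 TPM. Set against its target, the mean of Eif4ebp1 was 1.94 times that of Eif4e in tpMo, 1.16 times in preNeu, 0.669 in proneu, 0.813 in Ly6C+GMP, 1.30 in Ly6C-GMP and 1.06 in CMP cells. In 17 of the 31 tpMo cells both genes were detected, in 11 only Eif4ebp1, in 0 only Eif4e and in 3 neither, while in preNeu cells the counts were 5, 7, 8 and 11. Eif4ebp2 averaged between 12.6 TPM in preNeu and 75.3 TPM in tpMo cells, and Eif4ebp3 was detected in at most 5 cells of a label and in 0 of 31 tpMo cells.

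The gamma subunit of eIF2 has an X-linked and a Y-linked gene, Eif2s3x and Eif2s3y, and 239 cells over all labels had a detected Y-linked gene. Eif2s3y was detected in 4 of 31 tpMo, 6 of 31 preNeu, 12 of 22 proneu, 63.8% of Ly6C+GMP, 15 of 45 Ly6C-GMP and 22 of 47 CMP cells. Eif2s3x averaged 95.8 ± 101.1 TPM in Ly6C+GMP cells, against 60.1 ± 77.8 TPM in Ly6C-GMP cells, and Eif2s3y 62.6 ± 79.9 and 61.8 ± 146 TPM. The Ly6C-GMP cells with Eif2s3y were split unevenly by run, 13 among the 30 of run B against 2 among the 15 of run H. Xist, which is expressed from an inactive X chromosome, was above 0 TPM in 4 cells, 3 Ly6C-GMP and 1 CMP, all in run H. In that run a Y-linked gene was detected in all 16 CMP cells, the 1 with Xist included, and in 10 of the 15 Ly6C-GMP cells. Neither gene of the pair was detected in 17 of 31 tpMo, 20 of 31 preNeu, 6 of 22 proneu, 6 Ly6C+GMP, 10 of 45 Ly6C-GMP and 15 of 47 CMP cells. At this depth a cell listed with neither gene is not shown to lack both transcripts.

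Other gene lists of translation were counted in the same pairs. Of 13 measured genes of elongation, termination and recycling, 0 were higher and 11 (84.6%) lower in preNeu than in proneu cells, where 39.8% of all measured genes and 71.5% of those at 50 TPM or more were lower. They were led by the elongation factor genes Eef1d (-7.35) and Eef1g (-6.23). Of 29 measured partners and regulators of initiation 1 was higher and 17 (58.6%) lower, among them Pdcd4, an inhibitor of eIF4A, at -6.63, and Paip2, an inhibitor of poly(A)-binding protein, at -5.76. Of 88 measured ribosomal protein genes 85 (96.6%) were lower and 0 higher. Of 13 genes of the integrated stress response, which eIF2 phosphorylation starts, 6 (46.2%) were lower and 0 higher, a share near that of all genes. The serine synthesis gene Phgdh led these at -7.45, and both genes that make the hypusine of eIF5A, Dhps and Dohh, were lower at -1.52 and -3.19.

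Between tpMo and Ly6C+GMP cells 10 of 12 elongation, termination and recycling genes (83.3%) were lower and 0 higher, where 32.9% of all measured genes and 59.2% of those at 50 TPM or more were lower. They were led by Abce1, which splits ribosomes after termination, at -4.32. Of 30 partners and regulators 14 (46.7%) were lower and 0 higher, led by Bzw2 at -4.57, and of 88 ribosomal protein genes 40 (45.5%) were lower, both between the shares of all measured genes and of those at 50 TPM or more. Of 15 integrated stress response genes 6 were lower, led by Phgdh at -5.24, and 2 higher. Between proneu and Ly6C+GMP cells, Eef1e1 (-3.56), Abce1 (-2.84) and the serine synthesis gene Psat1 (-2.76) differed more than any initiation factor gene. These lists were chosen with earlier results known.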

How the data were processed

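RNA of single mouse bone marrow cells was measured by SMART-seq2 with paired-end reads, per the labels' protocols, and the authors deposited 1 table of TPM values with gene symbols. RSEM 1.2.19 and GRCm38 were used, per the submitters' processing notes; the sources used here do not give the aligner, annotation or filters. As TPM is relative to the cell total, read depth is unknown and intervals on shares of cells cover counting error only. No molecular identifiers were used, and the kit does not mark strand: 22 of the 54 genes share exon positions with another gene, 14 of them with one on the other strand. All columns matched a sample title (0 did not).

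Groups follow the cell type labels. Each sample was 1 cell, so each label was 1 sample and no test was made. Differences are those of mean log2(TPM + 1), called at 1 log2 unit, over genes whose mean reached 1 TPM in one of the labels compared. Scripts used Python 3.11.15, numpy 2.4.6, pandas 2.3.3, scipy 1.17.1 and matplotlib 3.10.9, and the difference was tested on simulated data. The members and all gene lists were chosen with earlier results of these data known. Named genes were, per comparison, the 5 members with the largest difference each way at 5 TPM or more in the higher label, the 8 with the highest mean of label means, the member of each role with the largest range, Eif2s3x and Eif2s3y, the eIF2 kinases, the 4E-binding protein genes and the 2 of each other list with the largest difference; the other members are given by their levels. Gene positions are those of GENCODE M21, and promoters those of RefSeq on GRCm38.p6.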

Additional observations from a re-analysis of the deposited data

How the results depend on the processing

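Among 1956 alternative differences of named genes, 1920 moved by less than 1 SD over cells, a wide margin that 209 of them met although they moved by 1 log2 unit or more; 19 moved by more than the SD and 17 that were past the limit of 1 log2 unit turned round. Of 970 alternatives to a difference past the limit, 168 were no longer past it in the same direction, and of 986 to one within the limit 75 were past it. Of the reversals, 2 came by median-ratio scaling and 12 by the log2 ratio of mean TPM, and their cause was not tested. By the log2 ratio of mean TPM, Ly6C-GMP against CMP gave Eif2b2 -0.21, Eif3b -0.20, Eif2b3 -0.085, Eif6 -0.17, Eif3c -0.0044, Eif4h -0.18 and Eif3m -0.046, proneu against Ly6C+GMP gave Eif1a 0.21 and Eif2b1 0.17, preNeu against proneu gave Eif1b 0.20, and tpMo against Ly6C+GMP gave Eif2b2 0.23 and Eif3f 0.029. Within run H, Eif2b3 (-0.039) and Eif6 (-0.33) turned round between Ly6C-GMP and CMP, and within run C Eif2b4 (0.87) between proneu and Ly6C+GMP. Median-ratio scaling turned Eif4g2 (0.13, preNeu against proneu) and Eif5a (-0.29, tpMo against preNeu).

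The counts of genes past the limit moved as follows, the higher count first. Except where a share of all genes is given above for the same setting, they stand without that background. The share of all genes can move with the setting as well, so these counts show only how the calls depend on the setting. With a pseudocount of 10 TPM they were 2 and 0 for Ly6C-GMP against CMP, 0 and 2 for proneu against Ly6C+GMP, 0 and 23 for tpMo against Ly6C+GMP, 1 higher for Ly6C+GMP against Ly6C-GMP and 0 lower for tpMo against preNeu. With 0.1 TPM they were 13 and 1 for Ly6C+GMP against Ly6C-GMP, with 3 lower for Ly6C-GMP against CMP and 23 lower for proneu against Ly6C+GMP. By the log2 ratio of mean TPM they were 3 and 3 for Ly6C-GMP against CMP, 2 and 1 for Ly6C+GMP against Ly6C-GMP, 3 and 0 for proneu and 4 and 7 for tpMo against Ly6C+GMP, and 2 lower for tpMo against preNeu. Median-ratio scaling gave 12 higher for Ly6C-GMP against CMP, 8 lower for proneu and 2 higher for tpMo against Ly6C+GMP, 1 higher for preNeu against proneu and 3 lower for tpMo against preNeu. At a limit of 0.5 they were 16 and 2 for Ly6C+GMP against Ly6C-GMP, 3 and 26 for proneu against Ly6C+GMP, 3 lower for Ly6C-GMP against CMP, 3 higher for tpMo against Ly6C+GMP and 2 lower for tpMo against preNeu. Run B gave 2 and run H 4 lower for Ly6C-GMP against CMP, run C gave 4 higher for proneu and 3 higher for tpMo against Ly6C+GMP, and the Ly6C+GMP cells of run C gave 7 and 6 against Ly6C-GMP. Renormalising without mitochondrial genes and the 20 most abundant genes gave 2 higher for proneu against Ly6C+GMP, and a mean of 50 TPM or more 0 lower for tpMo against preNeu.

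The summed TPM after that renormalising was 7938 in preNeu, 16927 in proneu, 17389 in Ly6C+GMP and 16583 in Ly6C-GMP cells, and by median-ratio scaling 18758, 9443, 9577 and 8441, with 10622 in CMP cells. Counted at 5 TPM, the share of Ly6C+GMP cells with Eif2s3y was 52.4%. Leaving out the highest cell of each label reversed no difference of a named gene. The filter of 50 TPM, the omission of the highest cells, all promoter windows and, beyond tpMo against preNeu, the limit to cells with 2000 genes were chosen after seeing the data. No paired analysis was possible because replicate numbers only name cells in accession order and each label is 1 sample; for the same reason no replicate could be left out.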
